A study of Caenorhabditis elegans with 30 samples.

Results

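Gene expression was followed here in first-stage larvae of the Caenorhabditis elegans strain LRB444, a double mutant that carries irld-39(duk1) and irld-52(duk17), between 6 and 12 h of starvation arrest. The mutant is called irld in the following. The comparison was chosen by strain and time from the labels: 3 libraries collected at 12 h of arrest were set against 3 collected at 6 h, and these 6 are part of a series of 30 libraries. Those times were 24 and 18 h after bleaching, the step that frees embryos from their mothers. Larvae hatched in S-basal, a buffer without food, at 20 °C. The wild-type strain N2, which carries neither mutation, was collected at the same times with 3 libraries each and is used only to show where the mutant differed. Each library was made from polyadenylated RNA of pooled whole larvae. Longer starvation and greater age therefore cannot be told apart, and in whole larvae fewer cells of a type cannot be told apart from less RNA per cell. The labels call the 3 libraries of a group biological replicates.

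Larvae that hatch without food stop development in the first larval stage, a state called L1 arrest, and can survive there for weeks. Insulin-like signalling through the receptor DAF-2 acts on the transcription factor DAF-16 (FOXO), which is required for this arrest and switches on genes for stress resistance. The irld genes encode proteins with receptor L-domains, the fold that binds ligand in the insulin receptor, but without a kinase. An L1 larva is covered by a cuticle of collagens and other secreted proteins, which its epidermis makes in bursts around hatching and at each molt.

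The 12 h libraries held 10960994, 8028150 and 8875088 counts on worm genes, and the 6 h libraries 11337093, 10583574 and 12019863. The irld 6 h library numbered 1 stood apart from the other 2 of its group. On the first principal component of the 6 libraries (43.7% of the variance) the 12 h libraries lay at 56.6, 18.8 and 4.98, and the 6 h libraries at 21.5 for that numbered 1 and -39.1 and -62.7 for the others. The share of ERCC spike-in counts was 1.01%, 2.05% and 1.11% at 12 h, and at 6 h it was 0.304% in the library numbered 1 and 1.57% and 1.957% in the others. Counts are therefore also given from a fit without it, called the reduced fit below, where they move by more than 1.5 times. The mutated genes were barely read. irld-39 (WBGene00010415, IV 16233148 to 16236555) had 3, 2 and 2 counts at 12 h and 1, 1 and 2 at 6 h, which was below the filter for testing. At irld-52 (WBGene00012043, V 15779679 to 15781247) there were 2, 12 and 2 counts at 12 h and 5, 7 and 4 at 6 h. N2 libraries were as low for irld-39, with 4, 2 and 0 counts at 12 h and 1, 1 and 0 at 6 h. For irld-52, N2 had 5, 0 and 3 counts at 12 h and 23, 22 and 1 at 6 h. The genotype could not be checked at this depth, and no label gives the lesion of either allele.

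Within these 6 h of arrest, 673 of 15508 tested genes changed in the mutant (4.34%) by edgeR's quasi-likelihood test at an adjusted p under 0.05. Of these, 297 rose (1.92% of the tested genes) and 376 fell (2.42%). The falls were larger: their median log2 change, 12 h over 6 h, was -1.17, and 227 were at least 2-fold and 57 at least 4-fold. The rises had a median of 0.85, with 127 at least 2-fold and 27 at least 4-fold. The median of all tested genes was -0.03. In 276 of the 297 rises and 334 of the 376 falls the 3 and 3 libraries did not overlap, beside 8.15% and 10.1% of all tested genes that lay wholly higher or wholly lower at 12 h. Protein-coding genes made up 277 of the rises and 373 of the falls.

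**Figure D1:**
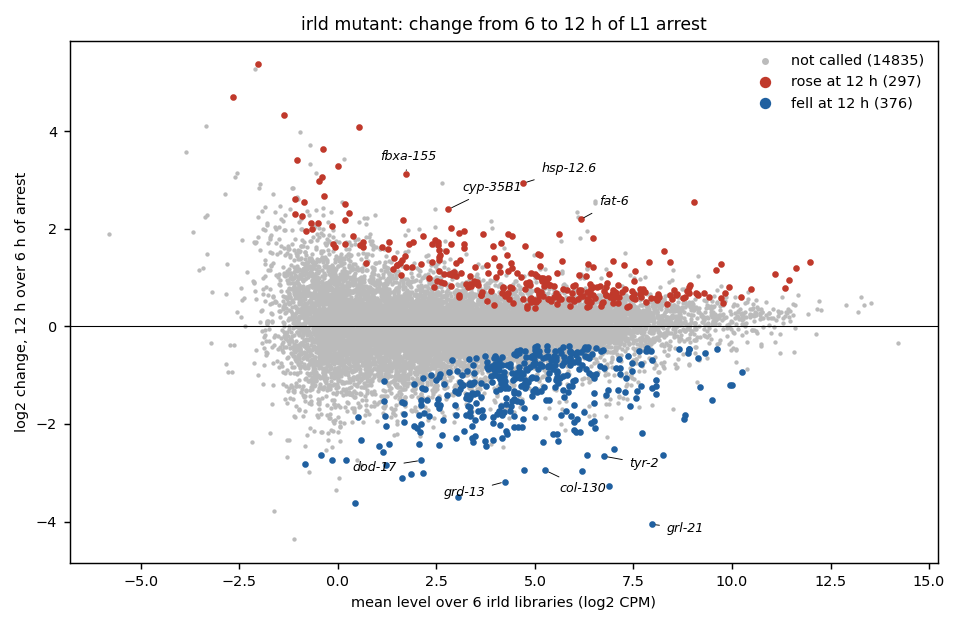
Each point is a tested gene of the irld mutant, placed by its mean level over the 6 libraries (log2 CPM) and its log2 change from 6 to 12 h of arrest. The 297 genes that rose are red, the 376 that fell are blue, and the steepest falls reach a log2 change of -4.06 for grl-21.

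How many genes passed depended on single libraries. Leaving out the irld 12 h library numbered 1, 2 or 3 gave 188, 324 or 810 calls in place of 673 for irld 12 h against 6 h, and leaving out the 6 h library numbered 1, 2 or 3 gave 1456, 458 or 141. In libraries of the same number the deviations from the group means moved together, so the number was also fitted as a block. With that block, called the blocked fit below, 1157 genes passed, 601 higher and 556 lower, and these included all 673. In each of the 6 fits that left out 1 irld library, called leave-one-out fits below, the same 111 genes passed, 52 that rose and 59 that fell. A called gene named in the following paragraphs without a count of these fits lost its call in at least 1 of them. All of these leave-one-out fits also took their spread from the other groups of the series. In a fit of only the groups compared 0 genes passed, while with the block in only those groups more passed than the 673. For gene lists, the counts of the reduced and the blocked fit stand in parentheses where either moved a count by more than 1.5 times. Counts for a list are to be read beside the shares over all tested genes in the main fit, 1.92% for rises and 2.42% for falls. Every change is measured against the rest of a library's genes. When libraries were scaled on the ERCC spike-in the median gene lay at -0.91 and 0 genes passed, with 653 at an unadjusted p under 0.05. That scaling included the irld 6 h library numbered 1, with 34603 ERCC counts beside 168461 and 239956 in the other 6 h libraries. It was not run without that library, so how far the -0.91 rests on it was not tested. Under ERCC scaling all 297 rises lay above the median gene and 105 of them above 0, and all 376 falls lay below both. These genes were chosen on the same libraries, so their place beside the median gene is no separate support for the calls. Because the amount of spike-in followed the total RNA of a sample, it does not measure RNA per larva.

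The 12 largest rises included genes for a heat-shock protein, a fatty acid desaturase and 2 cytochrome P450 enzymes. hsp-12.6 (WBGene00002013, IV 9446229 to 9447228), a small heat-shock protein gene that DAF-16 switches on, had 69.2, 38.3 and 30.5 CPM at 12 h, against 10.1, 6.08 and 2.04 CPM at 6 h. All 12 h libraries lay above all 6 h libraries, and the log2 change was 2.94 ± 0.46 (edgeR adjusted p = 0.00113). fat-6 (WBGene00001398, IV 11913692 to 11915687), a stearoyl-CoA desaturase gene that makes monounsaturated fatty acids, had 150.1, 138 and 64.1 CPM at 12 h, against 46.2, 18.9 and 12 CPM at 6 h. The groups did not overlap, the highest 6 h library lying just below the lowest 12 h library, and the log2 change was 2.19 ± 0.51 (edgeR adjusted p = 0.0152). fat-6 passed in only 2 of the 6 leave-one-out fits, whereas hsp-12.6 passed in all 6.

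A pair of cytochrome P450 genes, whose enzymes oxidise lipids and foreign compounds, rose beside them. cyp-35B1 (WBGene00019472, V 3939032 to 3941237), which an opposite-strand gene overlaps, had 14.8, 11.9 and 8.43 CPM at 12 h, against 3.22, 2.69 and 0.815 CPM at 6 h. cyp-32B1 (WBGene00021167, V 2197997 to 2201415) had 119.7, 52.9 and 56.6 CPM at 12 h, against 30.2, 20.1 and 11.6 CPM at 6 h. In both genes every 12 h library lay above every 6 h library, and the log2 changes were 2.40 ± 0.40 (edgeR adjusted p = 0.0013) and 1.89 ± 0.36 (edgeR adjusted p = 0.00341). arrd-11 (WBGene00011052, II 13763418 to 13765642), an arrestin domain gene, had 17.3, 9.45 and 8.43 CPM at 12 h, against 3.96, 2.92 and 1.90 CPM at 6 h. Its groups did not overlap either, with a log2 change of 2.01 ± 0.30 (edgeR adjusted p = 0.000778). dao-6 (WBGene00000932, III 9735263 to 9736201), named for its higher expression in dauer larvae and ageing adults, had 34.2, 41.4 and 25.38 CPM at 12 h, against 7.27, 9.08 and 11.4 CPM at 6 h. It was 1.86 ± 0.29 higher on the log2 scale (edgeR adjusted p = 0.000957), and all 4 of these genes passed in all 6 leave-one-out fits.

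irld-27 (WBGene00077751, II 3332339 to 3334205), a relative of the mutated genes, had 18.1, 11.1 and 13 CPM at 12 h, against 4.95, 4.69 and 3.53 CPM at 6 h. No 6 h library reached the lowest 12 h library, and the log2 change was 1.68 ± 0.32 (edgeR adjusted p = 0.00322), called in all 6 leave-one-out fits. It was the only 1 of 19 tested receptor L-domain genes to pass, and 14 of the 19 were higher at 12 h with a median log2 change of 0.41. The other largest rises were those of fbxa-155, an F-box gene (3.12 ± 0.90), nspc-18, of a nematode-specific peptide family (2.19 ± 0.56), ech-7, an enoyl-CoA hydratase gene (1.89 ± 0.40), clec-7, a C-type lectin gene (1.78 ± 0.45), and col-96, a collagen gene (1.70 ± 0.39), given as log2 changes with their SE. edgeR adjusted p values of these 5 were between 0.00828 and 0.0467. fbxa-155 passed in 0 of the leave-one-out fits, nspc-18 and clec-7 in 2, and ech-7 and col-96 in 4.

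Among the largest falls were secreted proteins of the cuticle and epidermis. grl-21 (WBGene00001730, IV 10737474 to 10738191), a ground-like gene of the hedgehog-related family, had 17, 39.2 and 29.3 CPM at 12 h, against 119.7, 401 and 903 CPM at 6 h. The groups lay far apart, but the 6 h libraries themselves differed widely, and the log2 change was -4.06 ± 0.81 (edgeR adjusted p = 0.00606). grd-13 (WBGene00001702, IV 3438312 to 3439507), a groundhog gene of the same family, had 3.15, 3.97 and 4.06 CPM at 12 h, against 28, 25.31 and 48.4 CPM at 6 h. Its 6 h libraries lay closer together than those of grl-21, each well above the 12 h libraries. Its log2 change of -3.19 ± 0.36 (edgeR adjusted p = 5.19e-05) had the smallest adjusted p of all tested genes. col-130 (WBGene00000704, IV 12427505 to 12428516), a cuticle collagen gene, had 8.85, 9.66 and 7.92 CPM at 12 h, against 21.7, 51.8 and 131 CPM at 6 h. Every 6 h library lay above every 12 h library, the one numbered 1 by least, and the log2 change was -2.95 ± 0.43 (edgeR adjusted p = 0.000778).

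tyr-2 (WBGene00010661, III 13744222 to 13747287), a tyrosinase gene, had 25.41, 29.9 and 33.2 CPM at 12 h, against 62.3, 144 and 354 CPM at 6 h. nlp-33 (WBGene00003771, V 11147346 to 11147737), an epidermal antimicrobial peptide gene, had 24.1, 16 and 25.38 CPM at 12 h, against 79.4, 125 and 205 CPM at 6 h. In both the groups did not overlap, with log2 changes of -2.66 ± 0.41 (edgeR adjusted p = 0.000979) and -2.64 ± 0.37 (edgeR adjusted p = 0.00064). The remaining 7 of the 12 largest falls were those of fip-6 (-3.03 ± 0.74) and fipr-3 (-2.45 ± 0.53), of the fungus-induced protein family, pcp-2, a prolyl carboxypeptidase-like gene (-2.95 ± 0.50), grsp-1, a glycine-rich secreted protein gene (-2.85 ± 0.53), dod-17, which lies downstream of DAF-16 (-2.75 ± 0.53), nas-38, an astacin protease gene (-2.46 ± 0.48), and srlf-34 (-2.52 ± 0.71). Their edgeR adjusted p values ran from 0.00164 to 0.0457. Opposite-strand genes overlap srlf-34 and fipr-3. Of the 12 falls, grd-13, col-130, pcp-2, grsp-1, tyr-2 and nlp-33 passed in all 6 leave-one-out fits and srlf-34 in 1.

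**Figure D2:**
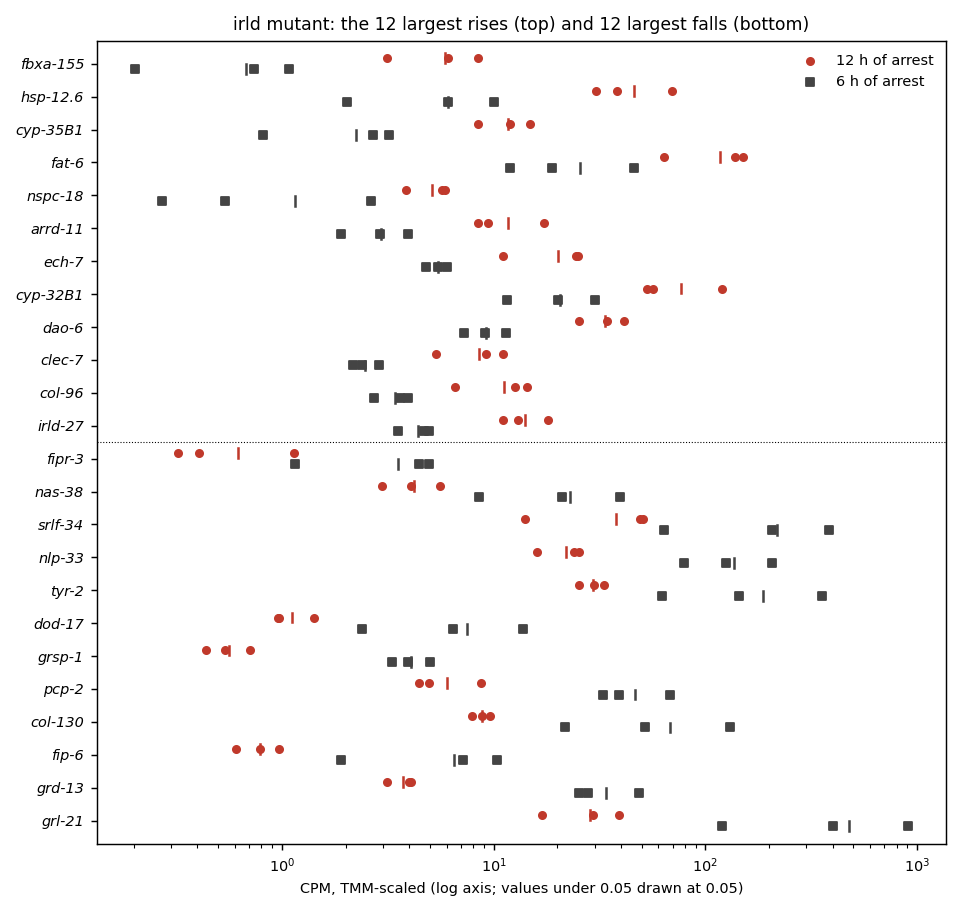
Levels of the 12 largest rises (top) and 12 largest falls (bottom) in each irld library, as TMM-scaled CPM on a log axis. Red circles are the 3 libraries at 12 h, dark squares the 3 at 6 h, and short bars the group means. The groups do not overlap in any of the 24 genes, as the rule for naming them required, and grl-21 spreads from 119.7 to 903 CPM at 6 h.

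The insulin receptor and FOXO genes did not pass, and some DAF-16 targets did. daf-16 (WBGene00000912, I 10750498 to 10776703), which an opposite-strand gene overlaps, had 204, 175 and 211 CPM at 12 h, against 189, 108.030 and 179 CPM at 6 h. daf-2 (WBGene00000898, III 2994514 to 3040846) had 412, 337 and 348 CPM at 12 h, against 312, 236 and 199 CPM at 6 h. The groups overlapped for daf-16 and not for daf-2, and neither change passed, at 0.31 ± 0.19 (edgeR adjusted p = 0.408) and 0.55 ± 0.21 (edgeR adjusted p = 0.14). Of 34 tested DAF-16-activated genes 6 rose and 1 fell, and their median log2 change was 0.53, beside -0.03 over all tested genes. Besides hsp-12.6, the risers were cyp-34A9, a P450 gene (1.46 ± 0.22), ftn-1, a ferritin gene (1.49 ± 0.29), hil-1, a linker histone gene (1.27 ± 0.26), sod-3, a mitochondrial superoxide dismutase gene (1.14 ± 0.33), and hsp-12.3, another small heat-shock gene (1.01 ± 0.29). sod-3, which genes on the opposite strand overlap, had 9.11, 7.73 and 7.41 CPM at 12 h, against 3.30, 4.31 and 3.40 CPM at 6 h. Its groups did not overlap (edgeR adjusted p = 0.0466), but it passed in 0 of the leave-one-out fits. The member that fell was lys-8, a lysozyme gene (-0.86 ± 0.23). Under ERCC scaling hil-1 lay at -0.05. An opposite-strand gene overlaps lys-8.

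Among the 16 tested genes repressed by DAF-16, 1 rose and 2 fell. The riser was fat-6, given above, and the members that fell were dod-17 and pho-1, an intestinal acid phosphatase gene (-1.57 ± 0.38, edgeR adjusted p = 0.0162). icl-1 (WBGene00001564, V 724332 to 728004), the glyoxylate cycle gene that turns fat into sugar precursors, had 125, 255 and 675 CPM at 12 h, against 247, 531 and 1043 CPM at 6 h. The libraries of each group differed widely, the ranges overlapped, and the change of -0.79 ± 0.78 (edgeR adjusted p = 0.648) did not pass. Among 29 components of insulin signalling (4 rose and 0 fell in the reduced fit, 3 rose and 0 fell in the blocked fit) 1 rose, skn-1, a transcription factor gene of the oxidative stress response (0.59 ± 0.17, edgeR adjusted p = 0.0402). It had 251, 269 and 231 CPM at 12 h, against 189.9, 156 and 152 CPM at 6 h, lay at -0.47 under ERCC scaling, and is overlapped by an opposite-strand gene. None of 23 tested insulin-like peptide genes passed (1 rose and 1 fell in the reduced fit, 1 rose and 0 fell in the blocked fit).

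Cuticle collagen genes made up a large group of falls. Of 112 tested col-named collagen genes 18 fell and 3 rose, and 33 lay wholly lower at 12 h, beside 10.1% of all tested genes. Their median log2 change was -0.73, beside -0.03 over all tested genes. Without the irld 6 h library numbered 1, 26 fell and 4 rose. col-166 (WBGene00000739, X 6280016 to 6280921) had 169.8, 112 and 281 CPM at 12 h, against 676, 503 and 911 CPM at 6 h. col-180 (WBGene00000753, X 11711378 to 11712280) had 33.8, 20.2 and 50.6 CPM at 12 h, against 121, 122 and 203 CPM at 6 h. Each 12 h library of both lay below each 6 h library, with log2 changes of -1.89 ± 0.26 (edgeR adjusted p = 0.00064) and -2.09 ± 0.31 (edgeR adjusted p = 0.000778). col-12 (-2.37 ± 0.42) fell as well, and these 3 with col-130 passed in all 6 leave-one-out fits. None of 14 collagens that set body shape or form furrows passed, and of 15 collagen-processing genes (0 rose and 2 fell in the reduced fit, 0 rose and 3 fell in the blocked fit) 1 fell, doxa-1, the maturation factor of the dual oxidase that cross-links cuticle proteins (-1.46 ± 0.28, edgeR adjusted p = 0.00379). Collagen genes resemble each other in sequence, as do members of the ground-like, fungus-induced, lectin, P450 and glutathione transferase families, so reads could be shared among them.

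Members of other cuticle and matrix families fell as well. Among 42 genes of the pharyngeal cuticle (abu and idp families) 4 fell and 0 rose, with a median of -1.07 and 37 members lower at 12 h. The 4 were abu-7 (-1.36 ± 0.31), idpa-3 (-1.79 ± 0.46), idpp-12 (-1.98 ± 0.52) and idpa-1 (-1.44 ± 0.42). In the reduced fit 12 fell and in the blocked fit 6. idpa-1 overlapped between the groups and passed in 1 of the leave-one-out fits. Of 45 cuticlin and apical matrix genes 3 fell, cutl-10 (-1.65 ± 0.41), cutl-23 (-1.32 ± 0.37, groups overlapping) and cutl-26 (-0.62 ± 0.18). Of 29 astacin proteases, metalloproteases of which some cut cuticle proteins, 5 fell and 1 rose. nas-38, nas-10 (-2.38 ± 0.55), nas-12 (-2.42 ± 0.64) and nas-7 (-0.92 ± 0.23) were the falls with the smallest p, and without the irld 6 h library numbered 1 there were 8.

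Hedgehog-related genes encode secreted proteins that C. elegans makes mostly in epidermal cells. Of 39 tested, 5 fell and 0 rose, 35 were lower at 12 h, and the median was -0.74. grl-4 (WBGene00001713, IV 7309838 to 7310760) had 71.7, 80.9 and 73.1 CPM at 12 h, against 136, 237 and 659 CPM at 6 h. grd-10 (WBGene00001699, IV 3441055 to 3441841) had 34.3, 24.5 and 26.7 CPM at 12 h, against 120.1, 79.1 and 119.1 CPM at 6 h. The groups of both stood apart, with log2 changes of -2.19 ± 0.40 (edgeR adjusted p = 0.00298) and -1.90 ± 0.32 (edgeR adjusted p = 0.0015), called in all 6 leave-one-out fits. Of 27 patched-related genes (1 rose and 4 fell in the reduced fit, 1 rose and 2 fell in the blocked fit), whose products resemble the receptor of hedgehog proteins in other animals, ptr-14 (-1.74 ± 0.32) and ptr-20 (-0.998 ± 0.29, groups overlapping) fell and ptr-21 (0.55 ± 0.13) rose, the last at -0.44 under ERCC scaling. None of 26 genes of molting and developmental timing and none of 16 hypodermis and seam cell regulators passed, with medians of -0.18 and -0.12. Their summed levels overlapped between the groups for the hypodermis and seam regulators, at 2892 to 3723 CPM at 12 h and 3003 to 3865 CPM at 6 h.

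Antimicrobial peptide genes of the epidermis had the highest share of falls of any list with 3 or more calls. Of 16 tested, 5 fell and 0 rose, and 15 were lower at 12 h with a median of -1.40. Their summed level was 359, 359 and 426 CPM at 12 h, against 503, 1011 and 1230 CPM at 6 h. All 12 h sums lay below all 6 h sums, and the library numbered 1 was the lowest at 6 h. nlp-29 (WBGene00003767, V 3984425 to 3984847), induced in wild-type worms by fungal infection and wounding, had 94.2, 91.3 and 116 CPM at 12 h, against 150.4, 339 and 345 CPM at 6 h. cnc-8 (WBGene00009624, X 10306595 to 10306951), a caenacin gene, had 7.45, 5.80 and 8.22 CPM at 12 h, against 20.4, 22.5 and 51.8 CPM at 6 h. Their log2 changes were -1.47 ± 0.33 (edgeR adjusted p = 0.0115) and -2.14 ± 0.40 (edgeR adjusted p = 0.00305), the second called in all 6 leave-one-out fits, and nlp-30, a neighbour of nlp-29 whose reads could be shared, changed by -1.40 ± 0.32. Blocking on the library number gave 10 falls, and there were 11 without the irld 6 h library numbered 1.

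Some genes of the gut fell too. Of 18 intestine markers 5 fell and 0 rose, with a median of -0.49, and 12 were lower and 6 higher at 12 h. Of those falls 0 passed in all 6 leave-one-out fits. act-5 (WBGene00000067, III 13604412 to 13606066), the actin of the microvilli, had 191, 234.8 and 709 CPM at 12 h, against 584, 735 and 1885 CPM at 6 h. The ranges overlapped, because the library numbered 3 was the highest in both groups, and the log2 change was -1.50 ± 0.38 (edgeR adjusted p = 0.0226). pept-1 (WBGene00003877, X 6456872 to 6461767), the transporter that takes up peptides from food, had 23.3, 22.6 and 43.8 CPM at 12 h, against 71.2, 49.2 and 79.1 CPM at 6 h, a log2 change of -1.15 ± 0.27 (edgeR adjusted p = 0.013). lbp-6, an intracellular lipid-binding protein gene, fell as well (-1.31 ± 0.30). Of 35 lysozyme and saposin-like genes, whose products digest bacteria, 5 fell and 0 rose, but in the reduced fit 6 fell and 5 rose, and in the blocked fit 5 fell and 1 rose. lys-1 (WBGene00003090, V 10277904 to 10279056) had 60.2, 68.2 and 123 CPM at 12 h, against 173, 249 and 357 CPM at 6 h. Its groups did not overlap and its change of -1.63 ± 0.25 (edgeR adjusted p = 0.000957) passed in all 6 leave-one-out fits. lys-2 (-1.32 ± 0.32) and lys-3 (-1.83 ± 0.42, groups overlapping), its neighbours on the chromosome, fell with it.

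Of 21 subunits of the vacuolar ATPase, the pump that acidifies lysosomes, 4 fell and 17 were lower at 12 h. vha-13 (-0.46 ± 0.13), which a gene on the same strand overlaps, vha-8 (-0.46 ± 0.13), vha-12 (-0.47 ± 0.13) and vha-10 (-0.50 ± 0.13) were the 4. Their summed level was 6061 to 7199 CPM at 12 h, and at 6 h it was 9001 CPM in the library numbered 1 and 6063 and 7146 CPM in the others. Without that 6 h library 0 fell. Gut and lysosomal proteases (5 rose and 2 fell in the reduced fit, 3 rose and 2 fell in the blocked fit) went both ways, with a median of 0.045. cpr-4 fell (-1.31 ± 0.30, edgeR adjusted p = 0.0121) and cpr-6 rose (0.93 ± 0.27, edgeR adjusted p = 0.0457), both cathepsin B-like genes, and cpr-6 lay at -0.35 under ERCC scaling.

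**Figure D3:**
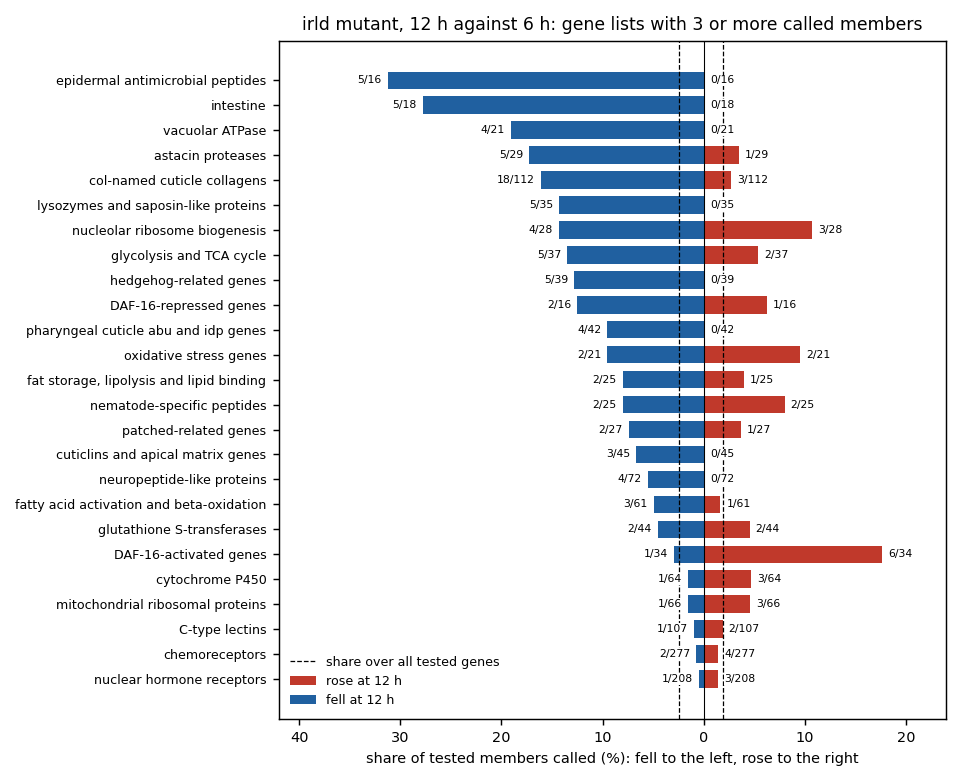
Gene lists with 3 or more called members in the irld mutant. Bars give the percentage of tested members that fell at 12 h (blue, to the left) or rose (red, to the right), with the counts beside them. Dashed lines mark the shares over all tested genes, 2.42% for falls and 1.92% for rises, and the epidermal antimicrobial and intestine lists reach furthest beyond the line for falls.

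Genes of protein synthesis changed in both directions. Of 28 nucleolar genes of ribosome biogenesis 3 rose and 4 fell. fib-1 (WBGene00001423, V 15000651 to 15002223), fibrillarin, had 154, 162 and 202 CPM at 12 h, against 322, 372 and 415 CPM at 6 h. nol-56 (WBGene00010627, V 10350466 to 10352978), a partner of fibrillarin in modifying ribosomal RNA, had 91.1, 92.8 and 102.9 CPM at 12 h, against 188, 164 and 213 CPM at 6 h. In both every 12 h library lay below every 6 h library, and the log2 changes were -1.095 ± 0.21 (edgeR adjusted p = 0.00345) and -0.98 ± 0.16 (edgeR adjusted p = 0.0013), called in all 6 leave-one-out fits. The GTPase genes nst-1 (WBGene00003821, II 8281162 to 8283208), nucleostemin, and ngp-1 (WBGene00003596, I 8394726 to 8398626) rose instead. nst-1 had 701, 505 and 574 CPM at 12 h, against 452, 330.2 and 321 CPM at 6 h, and ngp-1 had 761, 567 and 555 CPM at 12 h, against 455, 334 and 251 CPM at 6 h. The groups of both genes stood apart, with log2 changes of 0.69 ± 0.15 (edgeR adjusted p = 0.0106) and 0.86 ± 0.18 (edgeR adjusted p = 0.00786), but under ERCC scaling they lay at -0.38 and -0.29.

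Of 79 cytosolic ribosomal protein genes 77 were higher at 12 h, with a median of 0.23, but only rpl-24.2 passed (0.60 ± 0.15, edgeR adjusted p = 0.0216). Their summed level was 133100, 99860 and 107100 CPM at 12 h and 123500, 77140 and 86680 CPM at 6 h, so the ranges overlapped through the 6 h library numbered 1. Without that library 43 of the 79 rose. The 2 aminoacyl-tRNA synthetase genes that rose, of 31 (5 rose and 1 fell in the reduced fit, 6 rose and 0 fell in the blocked fit), were lars-1 for leucine and rars-1 for arginine. lars-1 (WBGene00003073, III 4181549 to 4186801) had 696, 632 and 707 CPM at 12 h, against 453, 434 and 398 CPM at 6 h, groups well apart, and a log2 change of 0.66 ± 0.14 (edgeR adjusted p = 0.00729) that passed in all 6 leave-one-out fits. rars-1, which an opposite-strand gene overlaps, changed by 0.71 ± 0.17. Of 40 translation factors (4 rose and 1 fell in the reduced fit, 3 rose and 0 fell in the blocked fit) eif-3.B rose (0.66 ± 0.17). Of 66 mitochondrial ribosomal protein genes (6 rose and 3 fell in the reduced fit, 5 rose and 2 fell in the blocked fit) 3 rose, mrpl-55 (0.78 ± 0.18), mrps-11 (0.61 ± 0.15) and mrpl-9 (0.56 ± 0.13), and mrps-35 fell (-0.65 ± 0.15). These rises turned negative under ERCC scaling, at -0.53 for rpl-24.2, -0.30 for lars-1, -0.34 for rars-1, -0.42 for eif-3.B, -0.34 for mrpl-55, -0.48 for mrps-11 and -0.42 for mrpl-9, each above the median gene.

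Enzymes of central carbon metabolism went both ways. Of 37 glycolysis and TCA cycle genes 2 rose and 5 fell, but in the reduced fit 6 rose and 3 fell. Of 9 genes of the glyoxylate cycle and gluconeogenesis 2 fell (0 rose and 2 fell in the reduced fit, 1 rose and 2 fell in the blocked fit). mdh-2 (WBGene00003162, III 6606544 to 6608106), mitochondrial malate dehydrogenase, had 91.3, 120.0 and 154 CPM at 12 h, against 225, 187 and 275 CPM at 6 h. fbp-1 (WBGene00001404, I 2581015 to 2586124), fructose-1,6-bisphosphatase, which catalyses a step specific to gluconeogenesis, had 28, 27.2 and 37.8 CPM at 12 h, against 52.8, 53.1 and 64.9 CPM at 6 h. No 12 h library reached a 6 h library in either, and the log2 changes of -0.91 ± 0.16 (edgeR adjusted p = 0.00245) and -0.88 ± 0.16 (edgeR adjusted p = 0.00251) passed in all 6 leave-one-out fits. tpi-1, triosephosphate isomerase (-0.50 ± 0.12), and suca-1, a succinyl-CoA synthetase gene (-0.49 ± 0.13), fell by less. aldo-2, an aldolase gene (0.77 ± 0.19), and pfk-1.2, a phosphofructokinase gene whose groups overlapped (1.29 ± 0.30), rose, but lay at -0.40 and -0.13 under ERCC scaling. tre-5, a trehalase gene, was the 1 of 11 trehalose and glycerol genes (1 rose and 0 fell in the reduced fit, 1 rose and 1 fell in the blocked fit) that rose (1.13 ± 0.24), and lay at -0.13 there. None of 12 genes encoded in mitochondrial DNA passed, and sdhd-1 (-0.49 ± 0.11) and nduf-6 (-0.48 ± 0.12) were the 2 of 49 nuclear respiratory chain genes (2 rose and 2 fell in the reduced fit, 0 rose and 4 fell in the blocked fit) that fell.

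In lipid metabolism the desaturase genes fat-6 and fat-2 were the 2 of 22 fatty acid synthesis genes (5 rose and 1 fell in the reduced fit, 2 rose and 0 fell in the blocked fit) that rose. fat-2 (WBGene00001394, IV 13323873 to 13326395) had 672, 617 and 713 CPM at 12 h, against 505, 293 and 445 CPM at 6 h, without overlap, and a log2 change of 0.69 ± 0.16 (edgeR adjusted p = 0.0129), or -0.38 under ERCC scaling. Of 61 genes of fatty acid activation and beta-oxidation (1 rose and 7 fell in the reduced fit, 2 rose and 4 fell in the blocked fit) 3 fell, acox-1.5, a peroxisomal acyl-CoA oxidase gene (-1.05 ± 0.21), acaa-2, a thiolase gene (-0.62 ± 0.13), and ech-6 (-0.97 ± 0.25), while ech-7 rose. Of 25 genes of fat storage and lipid binding (2 rose and 3 fell in the reduced fit, 2 rose and 3 fell in the blocked fit), lbp-9 rose (1.03 ± 0.24), and lbp-5 (-1.13 ± 0.31) and lbp-6 fell. lbp-5 and lbp-6 lie near each other on chromosome I. The yolk protein genes vit-1, vit-2 and vit-6 averaged 6.49, 1.15 and 6.39 CPM at 12 h and 10.8, 1.06 and 4.49 CPM at 6 h, and none passed.

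Detoxification and oxidative stress genes held changes in both directions. Of 64 cytochrome P450 genes 3 rose, cyp-35B1, cyp-32B1 and cyp-34A9, all called in all 6 leave-one-out fits, and cyp-34A2 fell (-1.61 ± 0.41). In the reduced fit 8 rose and 3 fell, and in the blocked fit 7 rose and 2 fell. The calls of the main fit were 6.25% of the 64, beside 4.34% of all tested genes. Of 44 glutathione S-transferases gst-20 (1.55 ± 0.37) and gst-15 (1.24 ± 0.31) rose and gst-26 (-1.76 ± 0.40) and gst-13 (-0.66 ± 0.16) fell. gst-20 had 737, 413 and 226 CPM at 12 h, against 249, 154.9 and 66.3 CPM at 6 h, so its groups overlapped. Among 21 oxidative stress genes (3 rose and 3 fell in the reduced fit, 4 rose and 2 fell in the blocked fit) sod-3 and skn-1 rose. trx-3, an intestinal thioredoxin gene (-1.09 ± 0.24), and msra-1, a methionine sulfoxide reductase gene (-1.45 ± 0.35), fell. hsp-6 (WBGene00002010, V 4824124 to 4826760), the mitochondrial HSP70, was the 1 of 22 chaperone genes of the endoplasmic reticulum and mitochondria (2 rose and 0 fell in the reduced fit, 3 rose and 0 fell in the blocked fit) that rose. It had 612, 562 and 559 CPM at 12 h, against 358, 261 and 435 CPM at 6 h, groups apart, and a log2 change of 0.72 ± 0.15 (edgeR adjusted p = 0.00606) that passed in all 6 leave-one-out fits but was -0.21 under ERCC scaling. None of 19 cytosolic chaperone genes (0 rose and 0 fell in the reduced fit, 1 rose and 0 fell in the blocked fit), 33 proteasome genes and 57 UDP-glycosyltransferase genes (4 rose and 2 fell in the reduced fit, 1 rose and 0 fell in the blocked fit) passed.

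In the nervous system few genes passed. Of 72 neuropeptide-like protein genes (3 rose and 10 fell in the reduced fit, 1 rose and 7 fell in the blocked fit) 4 fell, and 3 of these, nlp-33, nlp-29 and nlp-30, are the epidermal antimicrobial genes above. The fourth, nlp-24 (WBGene00003762, V 11616376 to 11616828), had 32.7, 18.8 and 26.4 CPM at 12 h, against 84.3, 100.4 and 163 CPM at 6 h, without overlap, and a log2 change of -2.16 ± 0.35 (edgeR adjusted p = 0.0013), called in all 6 leave-one-out fits. All 30 tested FMRFamide-like peptide genes were higher at 12 h, with a median of 0.38, but 0 passed (4 rose and 0 fell in the reduced fit, 2 rose and 0 fell in the blocked fit). unc-25, glutamate decarboxylase of GABA neurons, was the 1 of 23 neurotransmitter genes (0 rose and 3 fell in the reduced fit, 0 rose and 2 fell in the blocked fit) that fell (-0.66 ± 0.15). Among 277 tested chemoreceptor genes (9 rose and 5 fell in the reduced fit, 6 rose and 3 fell in the blocked fit) 4 rose and 2 fell. That was 2.17% called, below the 4.34% of all tested genes. sru-1 (1.67 ± 0.37) and str-38 (1.64 ± 0.38) were risers, and so were srx-16 and srbc-12, which had 0 counts in all 3 libraries at 6 h and at most 0.644 CPM at 12 h. No fold change is given for those 2. Of 88 ligand-gated channel genes (0 rose and 3 fell in the reduced fit, 0 rose and 4 fell in the blocked fit) lgc-34 (-1.32 ± 0.38) and lgc-21 (-1.41 ± 0.41) fell, and frpr-8, a peptide receptor gene whose groups overlapped, rose (0.81 ± 0.24; -0.24 under ERCC scaling). None of 24 pan-neuronal genes passed (1 rose and 0 fell in the reduced fit, 1 rose and 1 fell in the blocked fit).

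Regulators and germline genes moved rarely. Of 208 nuclear hormone receptor genes 3 rose and 1 fell, while 16 rose and 5 fell in the reduced fit and 8 rose and 5 fell in the blocked fit. In the main fit 1.92% of them were called, below the 4.34% of all tested genes. nhr-18 (WBGene00003617, V 2227203 to 2228986) had 67.9, 53.9 and 40.1 CPM at 12 h, against 30, 28 and 22.9 CPM at 6 h. Its groups did not overlap and its change of 1.002 ± 0.18 (edgeR adjusted p = 0.00248) passed in all 6 leave-one-out fits, though it was -0.01 under ERCC scaling. nhr-103, its neighbour on chromosome V, whose groups overlapped (0.66 ± 0.18), and nhr-64 (0.64 ± 0.17), rose, and nhr-143 fell (-0.64 ± 0.18). Both of these rises were -0.46 under ERCC scaling. ceh-18 (WBGene00000441, X 3843367 to 3857797), a POU homeobox gene, had 38.6, 39.9 and 52.1 CPM at 12 h, against 73.7, 72.6 and 79.9 CPM at 6 h, without overlap, and fell in all 6 leave-one-out fits (-0.79 ± 0.16 (edgeR adjusted p = 0.00485)). sma-6, a TGF-beta receptor gene, fell (-0.78 ± 0.20). fbf-2, an RNA-binding regulator of germline stem cells, was the 1 of 25 primordial germ cell genes that fell (-1.62 ± 0.40). None of 26 cell cycle genes, 31 DNA replication genes and 19 early embryo genes (1 rose and 0 fell in the reduced fit, 0 rose and 0 fell in the blocked fit) passed, and none of 31 sperm protein genes was high enough to be tested.

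A few remaining lists held single calls. clec-146, a C-type lectin gene, rose (1.30 ± 0.25) and clec-67 fell (-1.24 ± 0.36), so that with clec-7 3 of 107 lectin genes passed (6 rose and 5 fell in the reduced fit, 4 rose and 4 fell in the blocked fit). Of 25 nematode-specific peptide genes (9 rose and 2 fell in the reduced fit, 3 rose and 2 fell in the blocked fit) nspe-2 (1.254 ± 0.23) rose with nspc-18, and nspb-6 (-3.62 ± 0.74) and nspb-12 (-1.72 ± 0.49) fell. clec-146 and nspe-2 passed in all 6 leave-one-out fits. Of 30 short-chain dehydrogenase genes (4 rose and 1 fell in the reduced fit, 1 rose and 1 fell in the blocked fit) dhs-2 rose (1.12 ± 0.27) and dhs-5 fell (-1.14 ± 0.23). atg-16.2, an autophagy gene, rose (0.55 ± 0.13; -0.40 under ERCC scaling), and tni-1, a troponin I gene, was the 1 of 30 muscle structure genes (1 rose and 2 fell in the reduced fit, 1 rose and 5 fell in the blocked fit) that fell (-0.50 ± 0.13). Summed over the list, muscle genes had 33200 to 38760 CPM at 12 h and 28220 to 34040 CPM at 6 h. Gene by gene, 20 of the 30 were lower at 12 h, with a median log2 change of -0.25. The pan-neuronal genes summed to 4541 to 4924 CPM at 12 h and 4046 to 4141 CPM at 6 h, without overlap. Yet 13 of these 24 genes were lower at 12 h, with a median of -0.13, so the higher sum does not stand for most members. Sums of the intestine markers overlapped, at 3078 to 4556 CPM at 12 h and 3455 to 5124 CPM at 6 h. Whether the share of a tissue in the RNA played a part in these changes was not tested. Opposite-strand genes also overlap pho-1, cutl-23, nas-7, nas-10, nas-12, mrps-11, mrps-35, nduf-6, aldo-2, lbp-6, lbp-9, nhr-64, nlp-24, trx-3, msra-1 and dhs-5, and their reads cannot be told apart without strand.

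Wild-type larvae were then set beside the mutant over the same interval. In N2, 963 genes changed (6.21%), 412 higher (2.66%) and 551 lower (3.55%). These libraries are not those of the mutant's comparison. Of the mutant's 297 rises 295 had a positive log2 change in N2 and 211 passed there as well. All 376 falls had a negative one, and 302 passed. The 513 shared calls were 76.2% of the mutant's and 53.3% of those in N2, and over all tested genes 79.9% had the same sign. Genes that rose in irld had a median log2 change of 0.85 in irld and 0.78 in N2, and those that fell -1.17 in both. The first of each pair is inflated by selection, since the genes were chosen on it.

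The difference between the strains in this change was tested directly. edgeR called 0 of 15508 genes, as did DESeq2 and limma-voom, while 74 (0.477%) had an unadjusted p under 0.05, and the lowest edgeR adjusted p was 0.99997. This does not show that the strains acted alike: for the 11902 genes with a mean of at least 2 CPM the 95% interval of the difference reached 0.65 log2 units to either side at the median, and for 63.1% of them it lay within 2-fold. As a share of all tested genes, 74 of 15508 lies well below the 0.05 that p-values under 0.05 reach where nothing differs. This test was therefore conservative. The test and the intervals come from the fit without the block on library number. hsp-12.6 rose by 2.94 ± 0.46 in irld and 3.41 ± 0.48 in N2, and the difference was -0.48 ± 0.63. For grl-21 the changes were -4.06 ± 0.81 in irld and -3.53 ± 0.79 in N2, with a difference of -0.53 ± 1.02. Among named genes of at least 2 CPM the smallest unadjusted p were those of dyf-3, which sensory cilia need, and npr-10, a neuropeptide receptor gene. dyf-3 changed by -0.66 ± 0.24 in irld and 0.54 ± 0.24 in N2, and npr-10 by -0.90 ± 0.36 in irld and 0.69 ± 0.34 in N2. Neither strain's change passed for either gene, and the differences of -1.204 ± 0.345 and -1.59 ± 0.50 had unadjusted p of 0.0018 and 0.0037 (edgeR adjusted p = 0.99997 for both). The rule also names cal-3 (-1.48 ± 0.50), ztf-20 (-1.103 ± 0.417) and emc-2 (-0.39 ± 0.16), the last an endoplasmic reticulum membrane complex gene.

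**Figure D4:**
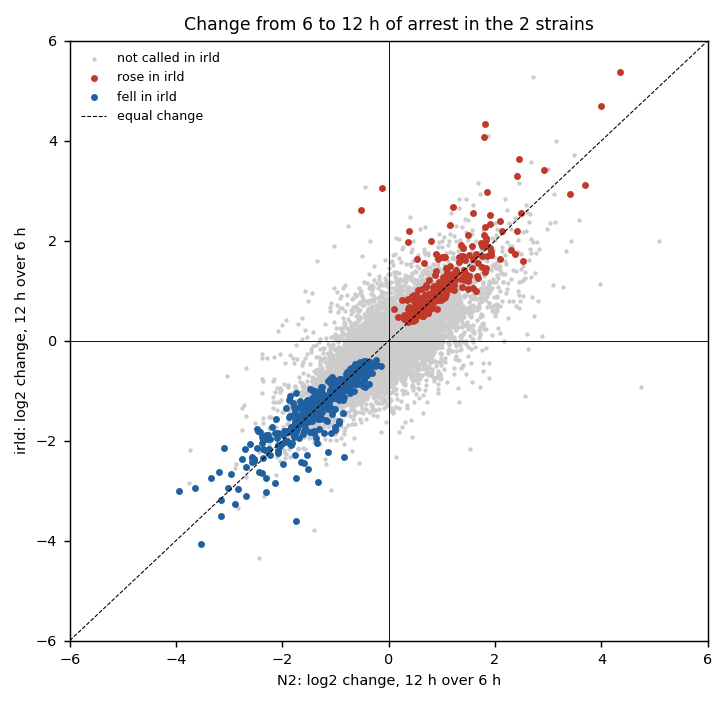
Log2 change from 6 to 12 h of arrest in irld (vertical axis) and in N2 (horizontal axis), 1 point per tested gene. Genes that rose in irld are red and those that fell are blue, and the dashed line marks equal change. The coloured points lie along that line, with 2 red points left of 0 in N2.

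Those 2 rises without a positive change in N2, picked out after their values were seen, are both genes known by a sequence name only. C13A2.12 (WBGene00044547, V 7259265 to 7260041) had 1.31, 1.93 and 0.812 CPM at 12 h, against 0.165, 0.231 and 0.0679 CPM at 6 h. F36D1.5 (WBGene00009464, I 11266070 to 11266474) had 1.402, 0.537 and 0.508 CPM at 12 h, against 0.165, 0.0769 and 0.136 CPM at 6 h. Their groups did not overlap, but their levels were low. The log2 changes in irld were 3.05 ± 0.68 (edgeR adjusted p = 0.0109) and 2.61 ± 0.71 (edgeR adjusted p = 0.0343), against -0.13 ± 0.60 and -0.52 ± 0.70 in N2. The differences of 3.18 ± 0.91 and 3.13 ± 1.01 had unadjusted p of 0.0018 and 0.0046, and edgeR adjusted p of 0.99997.

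Later times show how far these changes had gone by 12 h in the mutant. hsp-12.6 averaged 6.06 ± 4.02, 46 ± 20.5, 183 ± 21, 201 ± 34 and 247 ± 36 CPM at 6, 12, 24, 48 and 72 h (SD, n = 3 libraries each). fat-6 averaged 25.7 ± 18.0, 117 ± 47, 375 ± 30, 766 ± 88 and 1169 ± 28 CPM over the same times. On the CPM scale most of the climb of both came after 12 h. As a fold change this held for fat-6 only, and hsp-12.6 rose more before 12 h than after it. arrd-11 averaged 2.93 ± 1.03, 11.7 ± 4.8, 19 ± 2.8, 14.5 ± 2.5 and 14.4 ± 2.7 CPM, and irld-27 4.39 ± 0.76, 14.1 ± 3.7, 22.7 ± 11.3, 24.2 ± 4.1 and 25.38 ± 5.53 CPM. sod-3 had a course of its own, with 3.67 ± 0.56, 8.08 ± 0.91, 14.6 ± 5.0, 7.10 ± 3.81 and 3.52 ± 0.84 CPM.

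The 4 falling genes given here changed less in CPM between 12 and 72 h than between 6 and 12 h. As a fold change this held for col-130 only. By that measure grl-21 fell more between 12 and 72 h, and nol-56 and fbp-1 slightly more. grl-21 averaged 474 ± 397, 28.5 ± 11.1, 3.19 ± 2.66, 0.581 ± 0.439 and 0.999 ± 1.412 CPM at 6, 12, 24, 48 and 72 h. col-130 averaged 68.2 ± 56.4, 8.81 ± 0.87, 2.42 ± 0.27, 1.61 ± 0.36 and 1.55 ± 0.63 CPM. On the CPM scale the step between 6 and 12 h was the largest of the 4 steps in both. nol-56, at 188 ± 25, 95.6 ± 6.4, 60.8 ± 3.3, 59.7 ± 4.0 and 46.5 ± 1.7 CPM, and fbp-1, at 57.0 ± 6.9, 31 ± 5.9, 20.9 ± 2.4, 17 ± 4.3 and 15.9 ± 1.2 CPM, did the same. nst-1 and lars-1 kept climbing, to 2059 ± 166 and 1773 ± 41 CPM at 72 h. clec-7 and col-96 were highest at 12 h, with 8.55 ± 2.92 and 11.1 ± 4.1 CPM there and 2.87 ± 0.01 and 1.02 ± 0.22 CPM at 72 h.

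**Figure D5:**
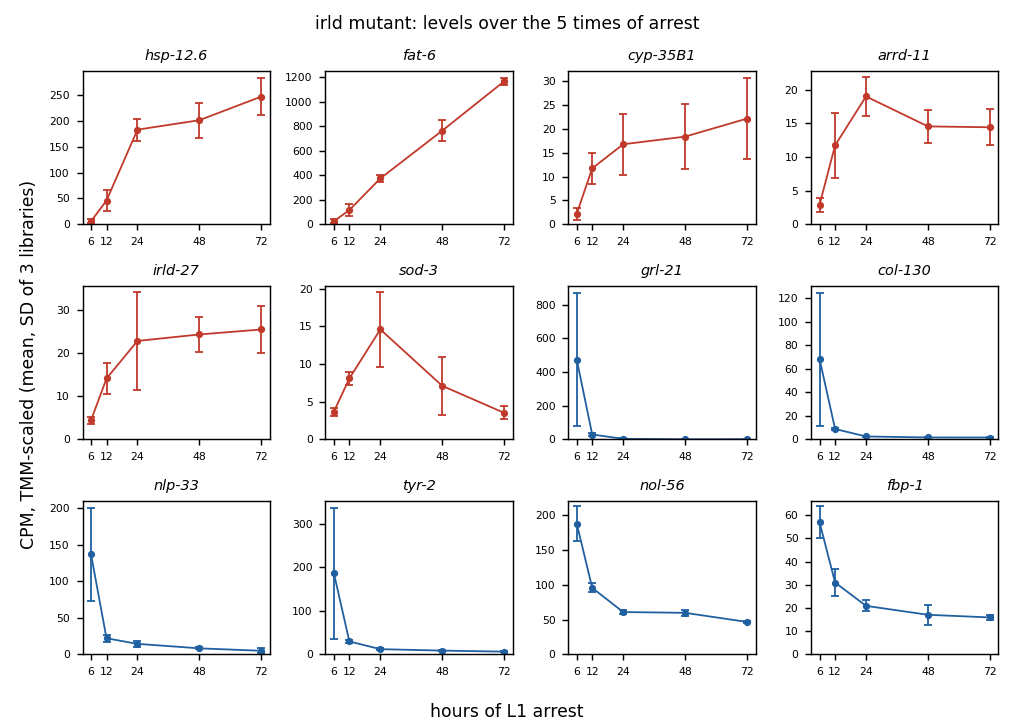
Mean level of 12 genes in the irld mutant at 6, 12, 24, 48 and 72 h of arrest, as TMM-scaled CPM with the SD of 3 libraries. Red genes rose and blue genes fell between 6 and 12 h, and most of the fall of grl-21, col-130, nlp-33 and tyr-2 lies before 12 h on this linear axis while hsp-12.6 and fat-6 rise until 72 h.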

How the data were processed

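The labels describe whole starved L1 larvae, 3 biological replicates per strain and time, TRIzol RNA, polyA selection and 50 ng of total RNA per library. Per the submitters' processing notes, Bowtie 1.2.2, HTSeq 0.11.2 and edgeR 3.24.4 were used. The deposited values are the authors' raw counts per gene, and each of the 30 library files equals its column of the series table. Whether counting used strand is not given in the sources used here. From these counts, CPM was computed with TMM scaling, on worm genes without the 92 ERCC sequences. Tests used edgeR 4.0.16 in R 4.3.3 (quasi-likelihood, robust, filterByExpr, 1 coefficient per strain and time over all 30 libraries), with Benjamini-Hochberg adjustment over 15508 genes and a threshold of 0.05. DESeq2 1.42.0 and limma 3.58.1 were alternatives, and figures used matplotlib 3.10.9 under Python 3.11.15. Log2 changes are 12 h minus 6 h, with SE.

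The main tests did not use library numbers, and only the fits with a block took them to pair the samples. The deviations of same-numbered irld libraries correlated across genes at 0.56, 0.47 and 0.40, and those of N2 at 0.36, 0.19 and 0.24. Between libraries of different number the correlations ran from -0.40 to -0.02 in irld and from -0.28 to 0.14 in N2. Deviations from a group mean cancel out within the group, so positive values at the same number force lower ones elsewhere. On simulated data for irld 12 h against 6 h (14877 genes, 50 changed per fold size) the test recovered 0%, 10%, 40% and 100% of changes of 1.25, 1.5, 2 and 4-fold. The simulated libraries were drawn independently of each other. Symbols matched 44053 of 46911 gene IDs. Coordinates are those of the Ensembl annotation of WBcel235. Named genes were the 12 largest rises and 12 largest falls without overlap and with at least 2 CPM, up to 4 called members per list with the smallest p, 5 genes for the strain difference, and 7 fixed genes. The members and gene lists were chosen with earlier results of these data known. P-values measure only the spread between these libraries.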

Additional observations from a re-analysis of the deposited data

How the results depend on the processing

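For irld 12 h against 6 h, 673 calls became 0 under ERCC scaling, 423 without a filter on low counts, 1091 with DESeq2, 0 in a fit of only the groups compared (1832 at an unadjusted p under 0.05), 1157 with the replicate block and 2163 with the replicate block in only those groups. Leaving out 1 library gave 141 to 1456. For N2 12 h against 6 h, 963 calls became 0 under ERCC scaling, 1579 in only the groups compared, 1550 with the replicate block and 3302 with the block in only those groups, and 391 to 671 with 1 library left out. The strain difference gave 0 calls under every alternative run. Scaling moved the split: of the calls for irld 12 h against 6 h 44.1% were higher with TMM, 50.4% with RLE, 61.3% with upper quartile and 33.4% with library size scaling.

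Under ERCC scaling, 23 named rises turned negative relative to the spike-in: hil-1 (-0.051), skn-1 (-0.47), ptr-21 (-0.44), rpl-24.2 (-0.53), mrpl-55 (-0.34), mrpl-9 (-0.42), mrps-11 (-0.48), eif-3.B (-0.42), lars-1 (-0.30), rars-1 (-0.34), ngp-1 (-0.29), nst-1 (-0.38), pfk-1.2 (-0.13), aldo-2 (-0.40), tre-5 (-0.13), fat-2 (-0.38), nhr-64 (-0.46), atg-16.2 (-0.40), cpr-6 (-0.35), hsp-6 (-0.21), frpr-8 (-0.24), nhr-18 (-0.0090) and nhr-103 (-0.46). That scaling included the irld 6 h library numbered 1, whose ERCC share of 0.304% was the lowest of the 6 irld libraries. It was not run without that library, and the causes were not tested. Over all alternatives, named genes kept their call, or stayed without one, in 1713 cases. With direction unchanged they lost the call in 613 cases and gained it in 4. A gene without a call in either fit counts among the 1713 even if its direction changed. In simulated data 10% of 1.5-fold and 40% of 2-fold changes were recovered, so a gene that did not pass may have changed by as much. Those data lacked the deviations that same-numbered libraries share and any library that stands apart, so recovery in the real libraries may differ.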

Other observations

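Several families that no list covered held more than 1 call between 6 and 12 h in the irld mutant. They were picked out by gene name after the values were seen and carry no test as families. Over all tested genes 1.92% rose and 2.42% fell. Of 46 tested ttr genes, which encode transthyretin-like secreted proteins, 11 fell, among them ttr-18, at 34.8 CPM at 12 h and 117 CPM at 6 h (log2 change -1.75 ± 0.25, edgeR adjusted p = 0.00064). Of 5 tyrosinase genes 3 fell, including tyr-6 (-0.93 ± 0.21, edgeR adjusted p = 0.0106). Of 12 galectin genes 3 fell, including lec-10 (-1.33 ± 0.22, edgeR adjusted p = 0.0013), and of 19 innexin genes, which encode gap junction proteins, 3 fell, including inx-13 (-0.72 ± 0.16, edgeR adjusted p = 0.0103). Of 17 chitinase-like chil genes 3 rose, including chil-16, at 13.8 CPM at 12 h and 4.53 CPM at 6 h (1.62 ± 0.27, edgeR adjusted p = 0.0013).

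Some abundant transcripts rose too. The non-coding RNA tts-1 averaged 5740 CPM at 12 h and 2296 CPM at 6 h (log2 change 1.32 ± 0.31, edgeR adjusted p = 0.0155). pqn-59, a gene for a glutamine- and asparagine-rich protein, averaged 1066 CPM at 12 h and 476 CPM at 6 h (1.16 ± 0.16, edgeR adjusted p = 0.00064). adss-1, an adenylosuccinate synthase gene of purine synthesis, averaged 1231 CPM at 12 h and 702 CPM at 6 h (0.81 ± 0.13, edgeR adjusted p = 0.000957). In all 6 leave-one-out fits ttr-18, lec-10, chil-16, pqn-59 and adss-1 passed, and tyr-6, inx-13 and tts-1 did not. Of 580 tested pseudogenes 14 rose and 2 fell, and of 175 non-coding RNA genes 6 rose and 0 fell, beside 1.92% of all tested genes that rose and 2.42% that fell.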
